A study of Mus musculus with 6 samples.

Results

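The satellite and reserve cell markers described here are 9 genes that mark the quiescent, PAX7-positive state of muscle stem cells: *Pax7*, *Pax3*, *Cd34*, *Calcr*, *Spry1*, *Sdc3*, *Sdc4*, *Chrdl2* and *Cxcr4*. They were found by gene symbol among the 46078 genes listed in the deposited counts, and each symbol matched 1 row. RNA was measured in C2C12 cells, an immortalized mouse myoblast line that fuses into myotubes when serum is withdrawn. KO cells carry a CRISPR-Cas9 knockout of *Hnrnpa2b1*, an RNA-binding protein of the hnRNP family, and WT cells are the matching wild type cells. Both genotypes received serum withdrawal with an insulin, transferrin and selenium supplement for 2 days, so no undifferentiated culture enters any comparison here. There were 3 libraries per genotype, each from total RNA depleted of ribosomal RNA; they are called KO1, KO2 and KO3, or WT1, WT2 and WT3, and values are given in that order. The methods describe independent clones of each genotype grown out after puromycin selection, but the sources used here do not say which clone gave which library. Differences between clones of the 2 genotypes and the effect of the knockout therefore cannot be told apart beyond the spread between these libraries.

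Satellite cells are the stem cells of skeletal muscle and lie between the fibre and its basement membrane. In differentiating cultures of myoblasts, some cells leave the cell cycle without fusing and keep or regain stem cell genes; these mononucleated cells are called reserve cells. PAX7 and PAX3 are the paired-box transcription factors of the lineage, calcitonin receptor and Sprouty1 are tied to the return to and maintenance of quiescence, and CD34, CXCR4, syndecan-3 and syndecan-4 are surface proteins used to recognise or isolate the cells.

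Each library held 33605258 to 40558740 counted reads, and 14828 genes passed the filter on low counts. *Hnrnpa2b1*, the targeted gene, had 159, 195 and 249 CPM across KO1 to KO3 against 225, 229 and 252 CPM across WT1 to WT3, where CPM is the read count relative to the library total after TMM scaling (trimmed mean of M-values). Its groups overlapped (log2 fold change −0.23, standard error (SE) 0.18, adjusted p = 0.381 in edgeR's quasi-likelihood test), so its RNA level does not separate the genotypes. The paper checked the knockout of its clones on the protein, by immunofluorescence and Western blot, and protein was not measured in these libraries. All 6 markers of muscle identity that were examined (*Des*, *Myod1*, *Myog*, *Ckm*, *Acta1* and *Chrna1*) were tested and were read at 96.0 CPM or more in every library. A gene is called here when its Benjamini-Hochberg adjusted p over all tested genes is below 0.05. Of all tested genes, 22.7% were called. Of the 6 muscle identity markers, 1 was called higher (*Myod1*) and 0 lower, but without KO1 edgeR also called *Des* (log2 fold change −0.34 with all libraries, −0.78 without KO1, adjusted p = 0.0340) and *Ckm* (−0.83 and −1.29, adjusted p = 0.0262) lower.

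Of the 9 markers, 5 were higher in KO (*Pax7*, *Cd34*, *Sdc3*, *Sdc4* and *Cxcr4*) and 1 was lower (*Spry1*). *Pax3*, *Calcr* and *Chrdl2* had almost no reads in either genotype and were not tested. Without WT1, and likewise without WT3, 2 of the 9 were called higher (*Sdc3* and *Cxcr4*) and 0 lower, with every direction kept. Among all tested genes 12.1% were called higher and 10.6% lower. None of the 6 markers that passed the filter had overlapping KO and WT libraries, whereas 44.3% of all tested genes had groups that did not overlap. The median log2 fold change of the 6 was 1.59, against 0.03 over all tested genes. In bulk RNA, fewer cells of a type and less RNA per cell cannot be told apart, so a higher level may come from more cells or from more RNA in each.

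**Figure D1:**
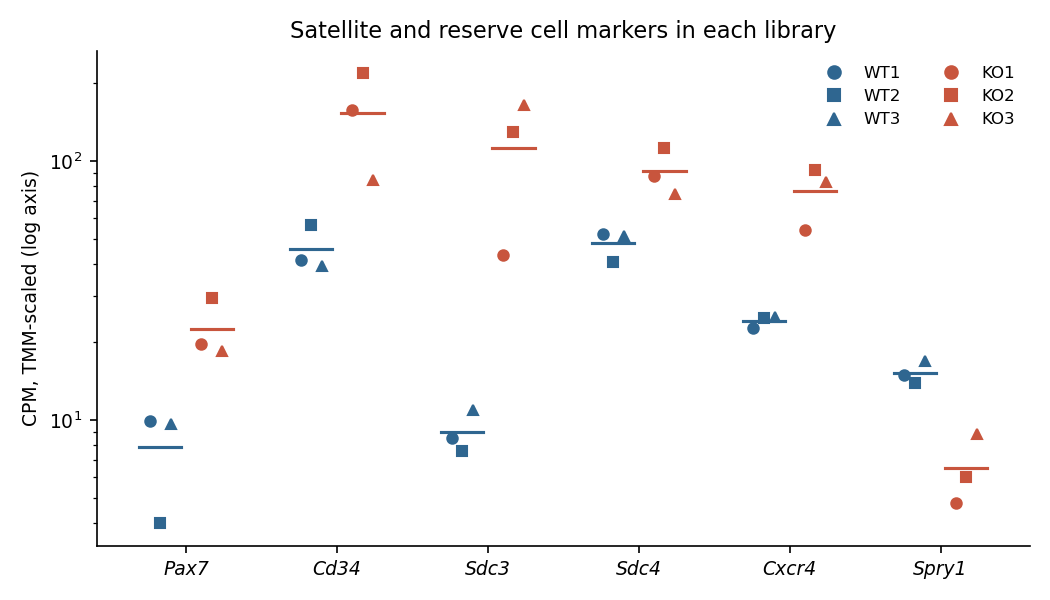
CPM of the 6 detected markers in each of the 6 libraries on a log axis, with WT in blue, KO in red, a separate symbol for each library of a genotype and a horizontal line at each group mean. The KO points lie above all WT points for *Pax7*, *Cd34*, *Sdc3*, *Sdc4* and *Cxcr4* and below them for *Spry1*, and *Sdc3* has the widest gap, from 10.9 CPM in the highest WT library to 43.5 CPM in the lowest KO library.

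*Pax7* (ENSMUSG00000028736; chromosome 4 from 139737062 to 139833528 on GRCm38, minus strand) specifies the satellite cell lineage and is the usual mark of satellite and reserve cells. It had 19.6, 29.5 and 18.4 CPM across KO1 to KO3 against 9.89, 3.99 and 9.65 CPM across WT1 to WT3. Every KO library was above every WT library, and WT2 stood low among the WT libraries. The means were 22.5 ± 6.09 CPM (SD, n = 3) in KO against 7.84 ± 3.34 CPM (SD, n = 3) for WT. The log2 fold change was 1.52 (SE 0.36, 95% confidence interval 0.69 to 2.34), which is 2.86-fold higher in KO (adjusted p = 0.0223, edgeR's quasi-likelihood test). An exact two-sided permutation test of 3 libraries against 3 gave p = 0.1, the smallest it can give, for *Pax7* and likewise for each of the other 5 detected markers. The *Pax7* call was lost without KO2 (adjusted p = 0.0546), without WT1 (0.0612) and without WT3 (0.0593), within a range of 9.08e-08 to 0.0612 over 12 alternatives.

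*Pax3* (ENSMUSG00000004872; chromosome 1 from 78101267 to 78197134, minus strand), the paralog that acts in the embryonic lineage and in satellite cells of some muscles, was read 2, 0 and 1 times across KO1 to KO3 against 4, 1 and 4 times across WT1 to WT3. Its 3 counts in KO against 9 in WT give a ratio of 0.314 with a counting interval of 0.0548 to 1.26, which includes equal levels. The libraries overlapped (exact two-sided permutation test, p = 0.2), so a difference in *Pax3* was not detectable at this depth. None of the 5 PAX7 cofactors examined (*Paxbp1*, *Carm1*, *Kmt2d*, *Ash2l* and *Wdr5*), which join PAX7 to histone methyltransferase complexes, was called by edgeR or by DESeq2, and 0 had an unadjusted p below 0.05 in edgeR. Their median log2 fold change was −0.16.

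*Myod1*, the myogenic determination factor of activated and committed cells, was called higher as well. Its CPM were 171, 270.1 and 194 across KO1 to KO3 against 98.5, 126 and 96.0 across WT1 to WT3 (log2 fold change 0.99, SE 0.20, adjusted p = 0.0141, edgeR's quasi-likelihood test), and its call was lost without WT1 (adjusted p = 0.0789) and without WT3 (0.0695). Reserve and quiescent cells hold *Pax7* with little *Myod1*, so the ratio of the 2 counts within a library, which does not depend on scaling between libraries, was compared. There were 11.4, 10.9 and 9.46 *Pax7* counts per 100 *Myod1* counts across KO1 to KO3 against 10, 3.17 and 10.1 across WT1 to WT3. WT1 and WT3 lay within the KO range and only WT2 lay below it. The mean log2 ratio was −3.24 ± 0.14 (SD, n = 3) in KO against −3.87 ± 0.96 (SD, n = 3) for WT, a difference of 0.63 that did not pass an exact two-sided permutation test (p = 0.3, with 0.1 the smallest possible). Without WT2 the difference was 0.07.

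Among the surface proteins, *Cd34* (ENSMUSG00000016494; chromosome 1 from 194938819 to 194961279, plus strand) encodes a sialomucin carried by quiescent satellite cells and also by endothelial, haematopoietic and fibro-adipogenic cells. It had 157, 218 and 84.6 CPM across KO1 to KO3 against 41.3, 56.6 and 39.3 CPM across WT1 to WT3. The groups did not overlap, and KO3 came nearest to the WT libraries. Means of 153 ± 66.6 CPM in KO and 45.7 ± 9.47 CPM in WT (SD, n = 3 each) corresponded to a log2 fold change of 1.74 (SE 0.33, 95% confidence interval 0.99 to 2.50), or 3.35-fold (adjusted p = 0.0107, edgeR's quasi-likelihood test). This call was lost without WT1 (adjusted p = 0.0599) and without WT3 (0.0539), within a range of 2.64e-13 to 0.0599 over 12 alternatives. A gene on the opposite strand, *Gm16897*, overlaps the end of *Cd34* and was read 3 to 43 times per library. The use of strand in counting is not given in the sources used here, so reads of this overlap cannot be assigned. Their part in the *Cd34* value was not tested.

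Of the 3 other genes of the CD34 family and its adaptor that were examined, edgeR called 1. *Podxl* (podocalyxin) had 2.32, 2.68 and 3.71 CPM across KO1 to KO3 against 0.231, 0.518 and 0.350 CPM across WT1 to WT3, with a log2 fold change of 2.98 (SE 0.40, adjusted p = 0.00369, edgeR's quasi-likelihood test). *Podxl* passed the filter on low counts only because its KO libraries were high, so no conclusion is drawn from its test. *Podxl2* (endoglycan) had a log2 fold change of 1.12 and *Crkl*, an adaptor that binds CD34, one of −0.08, and edgeR called neither, while DESeq2 called *Podxl2* (adjusted p = 0.0498).

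*Cxcr4* (ENSMUSG00000045382; chromosome 1 from 128588199 to 128592293, minus strand) encodes the receptor for the chemokine CXCL12 and is used to sort satellite cells. It had 54.3, 92.6 and 82.7 CPM across KO1 to KO3 against 22.7, 24.7 and 24.9 CPM across WT1 to WT3. The WT libraries lay close together, and the lowest KO library was above all of them by a wide margin. Its mean was 76.5 ± 19.9 CPM in KO and 24.1 ± 1.18 CPM in WT (SD, n = 3 each), with a log2 fold change of 1.67 (SE 0.20, 95% confidence interval 1.2 to 2.13), or 3.18-fold (adjusted p = 0.00266, edgeR's quasi-likelihood test). *Cxcr4* kept its call under all 12 alternatives, with a highest adjusted p of 0.0213.

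Both partners of CXCR4 that were examined rose with it. *Cxcl12*, its ligand, had 54.2, 151 and 111 CPM across KO1 to KO3 against 8.59, 5.21 and 9.30 CPM across WT1 to WT3. For *Cxcl12* the log2 fold change was 3.77 (SE 0.40, adjusted p = 0.00193, edgeR's quasi-likelihood test) and its call held under all 12 alternatives. *Ackr3*, the atypical receptor that binds and removes CXCL12, had 37.4, 45.8 and 28.2 CPM across KO1 to KO3 against 17.9, 19.6 and 18.8 CPM across WT1 to WT3 (log2 fold change 0.98, SE 0.19, adjusted p = 0.0113). The ligand and both receptors were thus higher in each KO library than in any WT library, while the *Ackr3* call was lost without WT1 (adjusted p = 0.0643) and without WT3 (0.0539).

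Syndecans are transmembrane heparan sulphate proteoglycans that bind growth factors and matrix. *Sdc3* (ENSMUSG00000025743; chromosome 4 from 130792537 to 130826319, plus strand) showed the largest change of the 6 detected markers. It had 43.5, 129 and 164 CPM across KO1 to KO3 against 8.53, 7.56 and 10.9 CPM across WT1 to WT3. KO1 was well below the other two KO libraries and still far above every WT library. The means were 112 ± 62.1 CPM in KO and 8.98 ± 1.70 CPM in WT (SD, n = 3 each). The log2 fold change was 3.64 (SE 0.47, 95% confidence interval 2.57 to 4.72), or 12.5-fold (adjusted p = 0.00302, edgeR's quasi-likelihood test). It ranked 241st by size of change among the 3361 called genes and kept its call under all 12 alternatives, with a highest adjusted p of 0.0237.

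*Sdc4* (ENSMUSG00000017009; chromosome 2 from 164424247 to 164443887, minus strand) changed less. It had 87.2, 112 and 74.3 CPM across KO1 to KO3 against 52.1, 40.8 and 51.5 CPM across WT1 to WT3. The groups did not overlap and KO3 was the lowest KO library in CPM, as for *Pax7* and *Cd34*. Means of 91.3 ± 19.3 CPM in KO and 48.2 ± 6.35 CPM in WT (SD, n = 3 each) gave a log2 fold change of 0.92 (SE 0.18, 95% confidence interval 0.50 to 1.34), or 1.89-fold (adjusted p = 0.0124, edgeR's quasi-likelihood test). The *Sdc4* call was lost without WT1 (adjusted p = 0.0540) and without WT3 (0.0505), within a range of 3.71e-05 to 0.0540 over 12 alternatives.

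Of the 8 other syndecan genes and partners examined, 2 were called higher and 0 lower. *Sdc1* (syndecan-1) had 380.4, 329 and 395 CPM across KO1 to KO3 against 115, 116 and 111 CPM across WT1 to WT3, with a log2 fold change of 1.69 (SE 0.13, adjusted p = 0.000640, edgeR's quasi-likelihood test) and a call under all 12 alternatives. *Ext1*, a polymerase that builds heparan sulphate chains, rose by a log2 fold change of 0.82 (SE 0.16, adjusted p = 0.0117), and its call was lost without WT1 (adjusted p = 0.0710) and without WT3 (0.0635). *Sdc2* had a log2 fold change of 0.65 and was not called (adjusted p = 0.0827), although its KO libraries, at 1032 CPM or more, were above its WT libraries, at 989.7 CPM or less. The partner *Ext2* had a log2 fold change of −0.00, *Sdcbp* (syntenin) 0.17, *Gpc1* (glypican-1) −0.29, the receptor *Fzd7* −0.33 and *Fn1* (fibronectin) 1.12, and edgeR called none of these. DESeq2 called 4 genes of this list, with *Sdc2* (adjusted p = 0.0380) and *Fn1* (0.0130) added. Calls were also gained in edgeR for *Sdc2* without WT2 (log2 fold change 0.92, adjusted p = 0.0349), *Fn1* without KO2 (1.44, 0.0310) and, lower in KO, *Gpc1* without KO1 (−0.67, 0.0324).

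**Figure D2:**
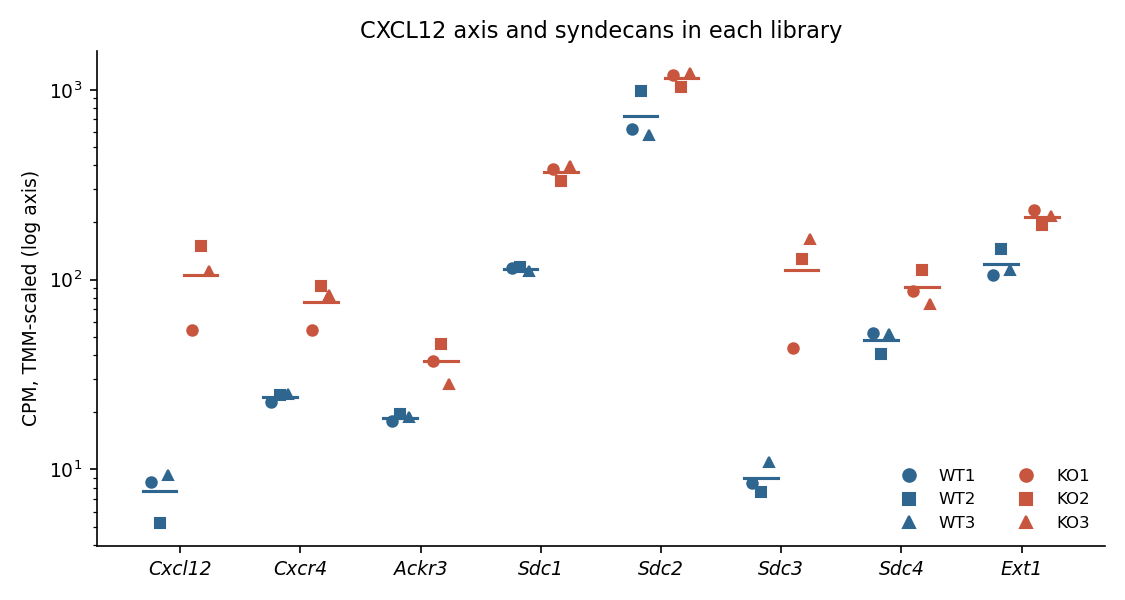
CPM on a log axis of the ligand *Cxcl12*, its receptors *Cxcr4* and *Ackr3*, the 4 syndecan genes and *Ext1* in each library, with WT in blue, KO in red and horizontal lines at the group means. KO and WT points are separated for all 8 genes drawn, most widely for *Cxcl12* and *Sdc3*. *Sdc2*, whose WT2 library reached 989.7 CPM, is separated least. The syndecan partners that are not drawn, *Gpc1*, *Ext2*, *Sdcbp*, *Fzd7* and *Fn1*, had overlapping groups. Of all tested genes, 44.3% had groups that did not overlap.

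The quiescence regulator *Spry1* moved the other way. *Spry1* (ENSMUSG00000037211; chromosome 3 from 37639947 to 37644598, plus strand) encodes Sprouty1, an inhibitor of receptor tyrosine kinase signalling that satellite cells need to return to quiescence. It had 4.78, 6.02 and 8.81 CPM across KO1 to KO3 against 14.9, 13.9 and 16.8 CPM across WT1 to WT3. All KO libraries were below all WT libraries. The means were 6.54 ± 2.06 CPM in KO and 15.2 ± 1.47 CPM in WT (SD, n = 3 each), and the log2 fold change was −1.22 (SE 0.24, 95% confidence interval −1.78 to −0.65), or 2.32-fold lower in KO (adjusted p = 0.0130, edgeR's quasi-likelihood test). The call was lost without WT1 (adjusted p = 0.0557) and without WT3 (0.0566), within a range of 1.64e-05 to 0.0566 over 12 alternatives.

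Of 12 other genes of the Sprouty family and of FGF signalling, 11 were tested, 2 were called higher and 0 lower, with a median log2 fold change of −0.02. *Spred1*, another inhibitor of Ras signalling, had a log2 fold change of 0.71 (SE 0.14, adjusted p = 0.0114, edgeR's quasi-likelihood test), and its call was lost without WT1 (adjusted p = 0.0622), without WT3 (0.0641) and in limma on TPM (0.0531). *Dusp6*, a phosphatase of ERK, also had a log2 fold change of 0.71 (SE 0.22, adjusted p = 0.0499), and its call was lost with DESeq2 size factors (adjusted p = 0.0523), in limma on TPM (0.101) and without KO2, KO3, WT1, WT2 or WT3, within a range of 0.0256 to 0.178 over its alternatives. The closest relative of *Spry1*, *Spry2*, had 68.1, 109.9 and 97.1 CPM across KO1 to KO3 against 90.8, 102 and 86.5 CPM across WT1 to WT3 (log2 fold change −0.02), *Spry4* had a log2 fold change of 1.13 (adjusted p = 0.0756, and 0.0360 without KO1), and *Spry3* had 0 counts in all 6 libraries. *Spry1* was thus the only *Spry* gene called with all 6 libraries.

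*Calcr* (ENSMUSG00000023964; chromosome 6 from 3685677 to 3764713, minus strand), the calcitonin receptor that holds satellite cells in quiescence, was read 1, 0 and 1 times across KO1 to KO3 against 1, 0 and 2 times across WT1 to WT3. No library exceeded 3 counts, the limit that a count of 0 allows, so *Calcr* was not detectable at this depth in either genotype. Of 5 receptor partners and ligands, edgeR tested 2 and called 1. That gene, *Ramp2*, encodes a receptor activity modifying protein and had 2.99, 5.24 and 2.27 CPM across KO1 to KO3 against 0.260, 0.366 and 0.755 CPM across WT1 to WT3 (log2 fold change 2.91, SE 0.51, adjusted p = 0.00829, edgeR's quasi-likelihood test). *Ramp2* also passed the filter on low counts only because its KO libraries were high, and no conclusion is drawn from its test. The related receptor *Calcrl* spread from 2.54 to 25.5 CPM among KO libraries and was not called, at a log2 fold change of −0.17, but without KO1 it was called lower (log2 fold change −1.73, adjusted p = 0.00790). *Ramp1*, under the filter in edgeR, was called lower in KO by DESeq2 (adjusted p = 0.0282), at 0.112, 0.0229 and 0 CPM across KO1 to KO3 against 0.434, 0.152 and 0.566 CPM across WT1 to WT3.

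*Chrdl2* (ENSMUSG00000030732; chromosome 7 from 100006404 to 100034728, plus strand), a chordin-like protein that binds bone morphogenetic proteins (BMP), was read 0, 1 and 3 times across KO1 to KO3 against 0, 1 and 1 times across WT1 to WT3. It too stayed at or under 3 counts in each library. Of 9 other genes of the chordin family and BMP signalling, 8 were tested, 6 were called higher and 0 lower. *Bmp4* had 8.17, 21 and 15.3 CPM across KO1 to KO3 against 3.01, 4.42 and 2.16 CPM across WT1 to WT3 (log2 fold change 2.22, SE 0.40, adjusted p = 0.00914, edgeR's quasi-likelihood test), and its call was lost without WT1 (adjusted p = 0.0519). *Bmp7* had 2.63, 1.53 and 0.635 CPM across KO1 to KO3 against 0, 0 and 0.0270 CPM across WT1 to WT3, which leaves no stable fold (adjusted p = 0.00404). It passed the filter on low counts through its KO libraries alone. That filter thus largely set its place among the 6 calls, and no conclusion is drawn from its test. *Bmp4* and *Bmp7* both encode BMP ligands, and of these *Bmp4* was higher in each KO library than in any WT library.

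Among the antagonists, *Chrd* (chordin) had a log2 fold change of 0.89 (SE 0.24, adjusted p = 0.0331, edgeR's quasi-likelihood test) and *Twsg1* (twisted gastrulation), a modulator, 0.72 (SE 0.11, adjusted p = 0.00580). *Nog* (noggin) went the other way in value, with 3.36, 1.72 and 5.37 CPM across KO1 to KO3 against 4.71, 10.7 and 4.37 CPM across WT1 to WT3 (log2 fold change −0.92), and was not called (adjusted p = 0.202). *Chrdl1*, the paralog of *Chrdl2*, had 0.252, 1.69 and 4.64 CPM across KO1 to KO3 against 0.289, 0.0914 and 0.108 CPM across WT1 to WT3. KO1 lay within the WT range, so the *Chrdl1* call (adjusted p = 0.0346) rested on KO2 and KO3, and it was lost without KO2 (0.0536) and without KO3 (0.0959). It was also lost without WT1 (0.0889), WT2 (0.1) and WT3 (0.123). The receptor *Bmpr1a* had a log2 fold change of 0.49 (SE 0.13, adjusted p = 0.0320), and its call was lost without a filter on low counts (0.0719), in limma on TPM (0.0688) and without KO3 (0.0613), WT1 (0.137), WT2 (0.0956) or WT3 (0.118). The receptor *Bmpr2* was not called (log2 fold change 0.32, adjusted p = 0.284), but without KO2 edgeR called it higher (0.53, adjusted p = 0.0449). The *Chrd* call was lost without KO3 (0.0624), WT1 (0.130), WT2 (0.0963) or WT3 (0.0588), whereas *Twsg1* kept its call wherever it was tested. *Bmp7* was also called wherever it was tested, but this says nothing of stability, since it passed the filter through its KO libraries alone.

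**Figure D3:**
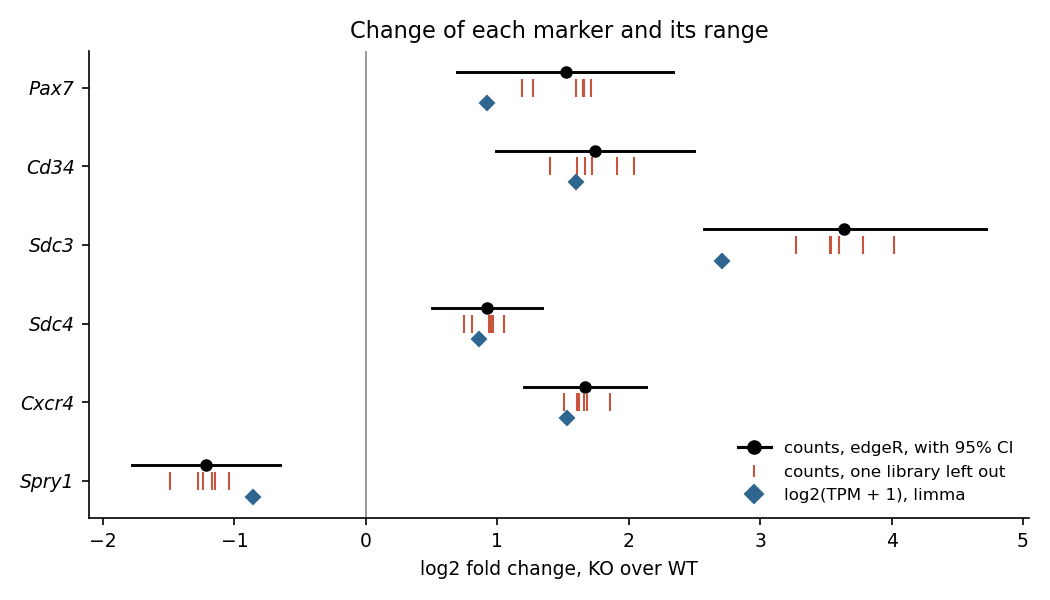
Log2 fold change of KO over WT for each detected marker, with the edgeR estimate and its 95% confidence interval in black, the estimates with each library left out in turn as red ticks and the limma estimate on log2(TPM + 1) as blue diamonds. No interval crosses 0, the leave-one-out values of *Sdc3* run from 3.27 to 4.02 and those of *Pax7* from 1.19 to 1.71, and the diamonds lie nearer to 0 than the black points, most for *Sdc3*.

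TPM values, which StringTie corrects for transcript length and which allow levels of different genes to be compared, gave the same 5 calls higher and 1 lower. Over all genes tested on this scale, 8.46% were called higher and 11.8% lower. *Pax7* had 2.26, 3.44 and 2.57 TPM across KO1 to KO3 against 1.25, 0.536 and 1.2 TPM across WT1 to WT3. The log2 fold changes, on the log2(TPM + 1) scale that understates changes of low genes, were 0.92 for *Pax7* (adjusted p = 0.0158, limma), 1.60 for *Cd34* (0.00628), −0.86 for *Spry1* (0.0225), 2.71 for *Sdc3* (0.00539), 0.86 for *Sdc4* (0.0105) and 1.53 for *Cxcr4* (0.00434). With no filter on TPM, 27302 genes were tested and none of the 6 was called, at adjusted p-values of 0.0509 to 0.110 with the same fold changes. In TPM the *Pax7* call was also lost without WT1 (adjusted p = 0.0559), and the *Spry1* call without KO2 (0.0574), WT1 (0.0991), WT2 (0.0525) or WT3 (0.0809).

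In WT cells *Cd34* was the most abundant marker at 14.4 ± 3.09 TPM (SD, n = 3), followed by *Sdc4* at 13.1 ± 1.35 TPM, and the ranges of these 2 overlapped. *Cxcr4* followed at 9.99 ± 0.893 TPM and *Spry1* at 3.74 ± 0.188 TPM, each clear of its neighbours in the order. *Sdc3* at 1.39 ± 0.270 TPM and *Pax7* at 0.998 ± 0.401 TPM came last and overlapped. In KO cells the order was *Cd34* at 47.0 ± 17.8 TPM, *Cxcr4* at 31.7 ± 9.93 TPM, *Sdc4* at 24.8 ± 4.23 TPM and *Sdc3* at 17.3 ± 11 TPM, where each overlapped the next. *Pax7* at 2.76 ± 0.615 TPM and *Spry1* at 1.69 ± 0.794 TPM lay below these and overlapped each other. *Sdc3* thus stood among the least abundant markers in WT cells and among the surface proteins in KO cells, while *Spry1* went from above *Pax7* to the bottom of the order.

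The KO libraries did not respond alike. KO2 was the highest KO library in CPM for *Pax7*, *Cd34*, *Sdc4* and *Cxcr4*, and KO3 was the lowest for *Pax7*, *Cd34* and *Sdc4* but the highest for *Sdc3* and *Spry1*. This order did not fully hold in TPM, where KO1 was the lowest KO library for *Pax7* and *Sdc4* and KO3 the highest for *Cxcr4*. Relative to the mean of WT, *Sdc3* was higher by 2.23, 3.79 and 4.13 on the log2 scale across KO1 to KO3, and *Cd34* by 1.79, 2.26 and 0.90. The SD of log2 CPM among KO libraries was 1.02 for *Sdc3*, 0.69 for *Cd34*, 0.41 for *Spry1*, 0.40 for *Cxcr4*, 0.36 for *Pax7* and 0.30 for *Sdc4*. Among WT libraries it was 0.69 for *Pax7* and at most 0.28 for the other 5, so the spread of *Pax7* came from WT2 and that of *Sdc3* and *Cd34* from the KO libraries.

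By the root mean square (RMS) difference of centred log2 CPM over the 6 libraries, the genes with the most similar profile were named for each marker as a description with no test. *Anpep* (0.164), *Fuom* (0.193) and *Nqo1* (0.193) were nearest to *Pax7*, and *Anpep* had the same low WT2, at 3.11 CPM against 7.81 and 6.98 CPM in WT1 and WT3. *Tmem42*, *Lmbr1* and *Ccl7* (0.178 to 0.205) were nearest to *Cd34*, *Emilin1*, *Pcsk6* and *Bzrap1* (0.252 to 0.294) to *Sdc3*, and *Syne2*, *Tcf7l1* and *Zhx1* (0.0830 to 0.0901) to *Cxcr4*. *Lsm6* (0.0606) and *Prdx2* (0.102) were nearest to *Sdc4*, and *Pdgfrl*, *Ddah1* and *Ptprm* (0.0757 to 0.139) to *Spry1*. By the single nearest gene, the *Sdc3* profile was the least closely matched of the 6 and the *Sdc4* profile the most closely. All 3 genes nearest to *Cxcr4* were closer to it than the second nearest gene was to *Sdc4*.

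Among 25 other genes of satellite and reserve cells, a list chosen with earlier results known, 8 were called higher and 3 lower, and the median log2 fold change was 0.50. The 6 largest calls were of mixed roles and directions. *Cdkn1c* and *Cdkn1b*, which encode the cyclin-dependent kinase inhibitors p57 and p27, moved in opposite directions: *Cdkn1c* had 42.4, 217 and 116 CPM across KO1 to KO3 against 28.6, 39.5 and 41.3 CPM across WT1 to WT3 (log2 fold change 1.78, SE 0.50, adjusted p = 0.0397, edgeR's quasi-likelihood test). *Cdkn1b* had 99.8, 122 and 97.5 CPM across KO1 to KO3 against 285, 177 and 239 CPM across WT1 to WT3 (log2 fold change −1.13, SE 0.20, adjusted p = 0.00812). KO1 was barely above the WT libraries for *Cdkn1c*, whose call was lost without KO2 (0.0841), KO3 (0.0817), WT1 (0.148), WT2 (0.0913) or WT3 (0.107) and in limma on TPM (0.0697), whereas *Cdkn1b* kept its call under all 12 alternatives.

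*Myf5*, the determination factor that PAX7 targets in myoblasts, was lower in KO while *Pax7* was higher. It had 4.92, 11.8 and 4.27 CPM across KO1 to KO3 against 16.1, 24.7 and 18.7 CPM across WT1 to WT3 (log2 fold change −1.50, SE 0.39, adjusted p = 0.0303, edgeR's quasi-likelihood test), and the call was lost without KO3 (0.0786), WT1 (0.0771), WT2 (0.0826) or WT3 (0.0781). *Gas1*, a growth arrest gene of quiescent cells, had a log2 fold change of 1.74 (SE 0.39, adjusted p = 0.0190) and lost its call without WT1 (0.0883), WT2 (0.0545) or WT3 (0.0729). *Cav1* (caveolin-1) had a log2 fold change of 1.59 (SE 0.25, adjusted p = 0.00594) and kept its call throughout. *Id1*, an inhibitor of basic helix-loop-helix factors, had a log2 fold change of 1.23 (SE 0.22, adjusted p = 0.00957) and lost its call without WT1 (0.0510). The remaining 5 calls, listed after their values were seen, were higher for *Met* (0.90), *Hes1* (0.97), *Notch2* (0.94) and *Cdh15* (0.70) and lower for *Megf10* (−0.90), all as log2 fold changes. Of these, *Met* kept its call with each library left out, whereas *Hes1* lost it without KO2 (0.0638), KO3 (0.0757), WT1 (0.103), WT2 (0.0621) or WT3 (0.0998), *Notch2* without KO3 (0.0512), WT1 (0.0966) or WT3 (0.0817), *Cdh15* without KO3 (0.0615), WT1 (0.130) or WT3 (0.0946), and *Megf10* without WT3 (0.0672). Of the surface markers on this list, *Vcam1* (log2 fold change 0.58, adjusted p = 0.0533), *Itga7* (−0.32), *Itgb1* (−0.21) and *Cd82* (0.17) were not called. The KO libraries of *Vcam1* lay above its WT libraries, and edgeR called it higher with scaling by library totals (0.71, adjusted p = 0.0386). Without KO1 edgeR also called *Vcam1* (adjusted p = 0.00853), *Hey1* (0.0120), *Notch1* (0.00396), *Notch3* (0.0436), *Id2* (0.0159) and *Id3* (0.00483), all higher in KO.

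**Figure D4:**
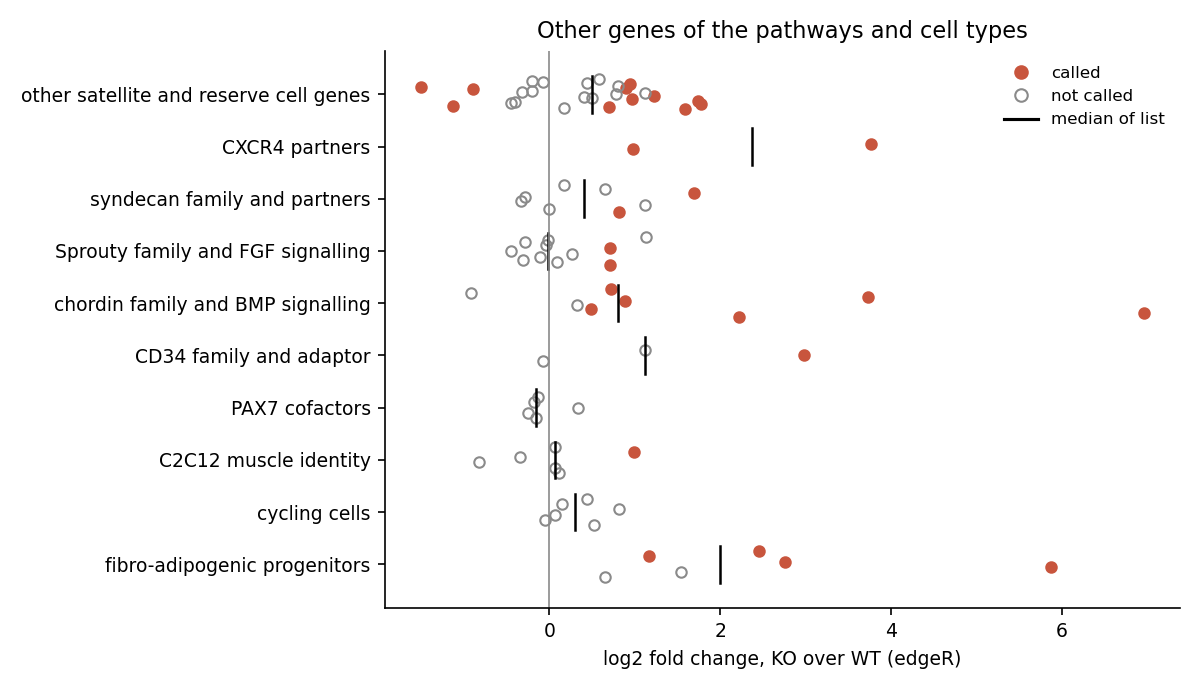
Log2 fold change of KO over WT in the edgeR fit for the tested genes of each list, with called genes as filled red points, other genes as open grey points and a black bar at the median of each list. The calls of the CXCR4 partners, the chordin and BMP genes and the fibro-adipogenic genes lie to the right of 0, the satellite and reserve cell genes have calls on both sides, and the point farthest right is *Bmp7*, whose fitted value has no stable size since its WT libraries were at or near 0.

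Markers of other cells that carry some of the same surface proteins were read beside these results. Of the 6 fibro-adipogenic progenitor markers, 4 were called higher and 0 lower, and their summed level was 5124 to 8415 CPM in KO and 3448 to 4512 CPM in WT, most of it *Col3a1*. *Ly6a* (Sca-1) had 57.6, 84.2 and 33.4 CPM across KO1 to KO3 against 7.98, 8.26 and 9.54 CPM across WT1 to WT3, where KO2 was the highest and KO3 the lowest KO library, as for *Cd34*. No other marker of the list had its KO libraries in that order. *Dpt* had 3.78, 56.3 and 35 CPM across KO1 to KO3 against at most 0.665 CPM in WT, and *Pi16* had 15.8, 5.04 and 13.5 CPM across KO1 to KO3 against 1.36, 3.54 and 1.4 CPM across WT1 to WT3. *Pdgfra*, a defining marker, had 6.32, 8.59 and 12 CPM across KO1 to KO3 against 3.59, 3.47 and 4.93 CPM across WT1 to WT3 (log2 fold change 1.17, SE 0.29, adjusted p = 0.0257, edgeR's quasi-likelihood test), and none of the 6 was at 0 in every library. *Col3a1* had a log2 fold change of 0.65 and was called by DESeq2 (adjusted p = 0.0366) but not by edgeR (0.132, and 0.0487 without KO1). *Dcn* (decorin), called by neither, had 90.6, 7.58 and 7.62 CPM across KO1 to KO3 against 11.6, 7.01 and 17.7 CPM across WT1 to WT3, so that KO1 alone lay above the WT range, and its log2 fold change went from 1.54 to −0.68 without KO1. The *Pdgfra* call was lost without KO3 (0.0702), WT1 (0.109), WT2 (0.0793) or WT3 (0.0576) and the *Pi16* call without WT1 (0.0800) or WT3 (0.0734). The part of these genes in the rise of *Cd34* was not tested.

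The defining markers of endothelial cells were close to 0: *Pecam1* had at most 3 counts and *Emcn* at most 1 in any library, and the 6 markers summed to 0.979 to 1.12 CPM in KO and 1.77 to 2.80 CPM in WT. *Kdr*, the 1 endothelial gene called, was lower in KO (log2 fold change −2.15, SE 0.59, adjusted p = 0.0363, edgeR's quasi-likelihood test) at no more than 1.37 CPM, and its call was lost without KO3 (0.0878), WT1 (0.0879), WT2 (0.0791) or WT3 (0.128). *Kdr* passed the filter on low counts only because its WT libraries were higher, so no conclusion is drawn from its test. Among haematopoietic markers, *Adgre1* had at most 2 counts and *Cd48* at most 1, and the 6 summed to 2.66 to 3.95 CPM in KO and 2.19 to 2.78 CPM in WT. The 4 Schwann and neural crest markers summed to 1.05 to 1.42 CPM in KO and 0.839 to 1.27 CPM in WT. None of the haematopoietic and Schwann markers was called by edgeR or DESeq2, and 0 of those tested had an unadjusted p below 0.05 in edgeR. Of the 6 cycling markers, 0 were called by edgeR and 1 by DESeq2, with 1 at an unadjusted p below 0.05 in edgeR and a median log2 fold change of 0.29. That count of 0 rested on KO1, since without it edgeR called *Mki67* (log2 fold change 1.10, adjusted p = 0.00428), *Top2a* (0.64, 0.0176) and *Ccna2* (0.80, 0.0163) higher.

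The tested genes around each marker were read beside it. Of 88 tested genes within 5 Mb of the start of *Sdc4*, 31 were called higher and 0 lower, which is 35.2% called against 22.7% of all tested genes. Their median log2 fold change was 0.54, and 29 of them changed by more than *Sdc4* did. The part of this region in the *Sdc4* value was not tested. Around *Sdc3* the 144 tested genes had a median log2 fold change of 0.03 and 15.3% were called, around *Cxcr4* the 54 tested genes had a median of −0.04, and around *Spry1* the 45 tested genes had a median of 0.03. The median was 0.20 for the 100 tested genes around *Pax7* and 0.31 for the 41 around *Cd34*. In these windows 4 genes changed by more than *Sdc3*, 4 by more than *Cxcr4* and 6 by more than *Spry1*. At *Cd34* the 3 nearest tested genes, *A330023F24Rik*, *Gm16897* and *Gm37132*, had log2 fold changes of 1.47, 1.4 and 1.90, and the next, *Cd46*, had 0.48. None of the 4 was called in edgeR, and they were singled out after their values were seen.

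**Figure D5:**
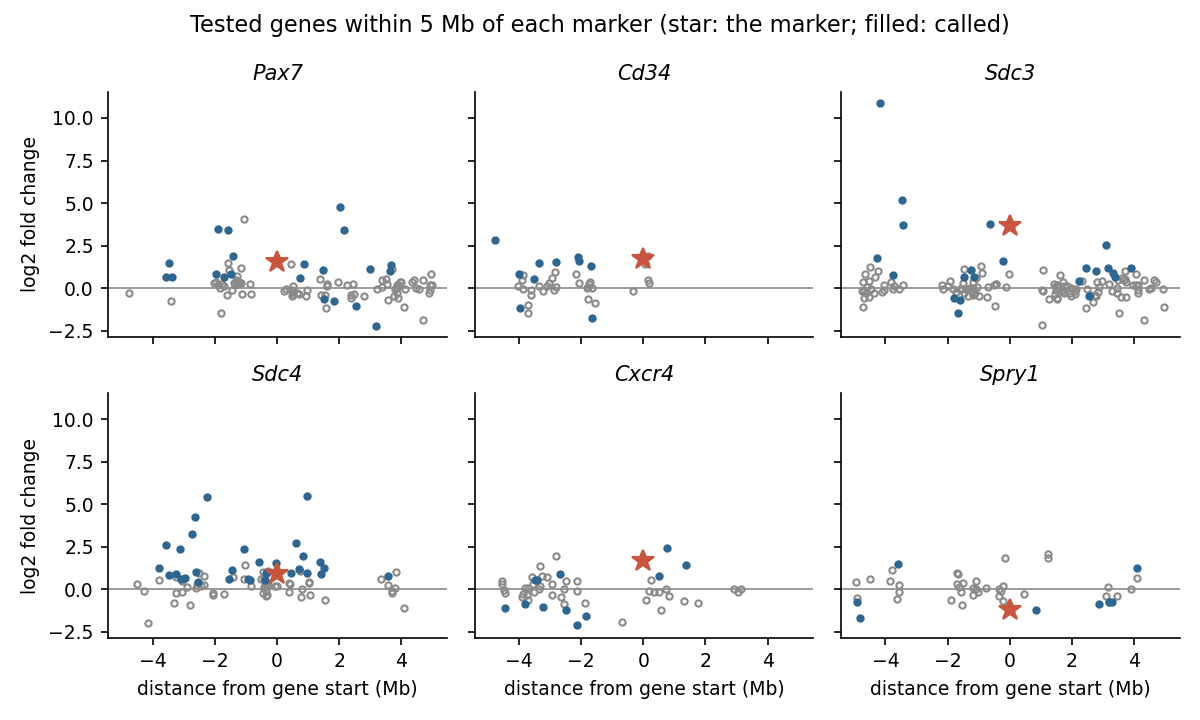
Log2 fold change of KO over WT against distance from the start of each marker in Mb, for tested genes within 5 Mb, with the marker as a red star, called genes filled in blue and other genes as open circles. The genes around *Sdc4* lie mostly above 0 with 31 calls, all of them higher, while those around *Sdc3*, *Cxcr4* and *Spry1* are centred near 0.

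The sequence before the gene start was read for the markers with an entry in RefSeq's promoter table on GRCm38.p6. Entries were found for 7 of the 9 markers and for all 6 that were detected, but not for *Pax3* and *Chrdl2*. The E-box, CANNTG, which reads the same on both strands and is bound by MYOD1 and its relatives, and TGGGAA on either strand, the core of the motif bound by the Notch effector RBPJ, were searched in the 250 bases before each start. An E-box was found in 1 of the 6 detected markers, *Spry1*, and in 66.2% of 32851 windows of the same length, and TGGGAA in 0 of the 6 and in 21.6% of windows. The windows of the marker that rose most, of the one with the narrowest interval among those that rose over 3-fold, and of the one that fell are shown in the direction of transcription, ending just before the start, with each E-box in capitals. They are *Sdc3* at chr4:130792287-130792536 on the plus strand, *Cxcr4* at chr1:128592300-128592549 on the minus strand and *Spry1* at chr3:37639697-37639946 on the plus strand.
Sdc3: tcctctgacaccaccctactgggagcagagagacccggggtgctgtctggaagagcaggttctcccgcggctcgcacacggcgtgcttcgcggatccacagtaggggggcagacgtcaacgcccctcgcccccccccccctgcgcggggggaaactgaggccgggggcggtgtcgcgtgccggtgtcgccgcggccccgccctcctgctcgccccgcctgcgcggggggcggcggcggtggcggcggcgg
Cxcr4: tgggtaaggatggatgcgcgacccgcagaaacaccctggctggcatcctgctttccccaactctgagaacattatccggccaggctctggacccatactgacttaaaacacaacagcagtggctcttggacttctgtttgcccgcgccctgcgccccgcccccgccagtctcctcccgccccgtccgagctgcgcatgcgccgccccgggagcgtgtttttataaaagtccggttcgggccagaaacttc
Spry1: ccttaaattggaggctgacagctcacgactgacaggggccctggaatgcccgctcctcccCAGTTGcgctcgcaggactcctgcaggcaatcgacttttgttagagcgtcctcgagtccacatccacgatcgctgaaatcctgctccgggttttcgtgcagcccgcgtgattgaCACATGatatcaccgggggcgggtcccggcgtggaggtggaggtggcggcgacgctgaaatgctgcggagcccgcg

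The 2 E-boxes of *Spry1*, CAGTTG and CACATG, begin 190 and 76 bases before the start, and the other 2 windows hold none. The *Sdc3* window is 76.4% G or C, above 97.0% of all windows, with 32 CpG dinucleotides against a median of 6. The *Cxcr4* window is 61.2% G or C with 19 CpG dinucleotides and the *Spry1* window 62.4% with 23, against a median of 52.4% over all windows. These matches describe the letters in these windows and say nothing of binding.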

How the data were processed

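RNA-seq reads of 3 KO and 3 WT C2C12 libraries were processed by the authors with Trim Galore, STAR, featureCounts and StringTie, as the submitters' processing notes list them. The authors deposited raw read counts per gene, with no normalization, and TPM values from StringTie for each library. TPM rows with the same gene identifier were summed. The notes name mm9 and the methods GRCm39, but 91.1% of 45137 shared genes in the deposited tables share a start or end with the GRCm38 annotation, so positions are given on GRCm38. The use of strand and the annotation release are not given in the sources used here.

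All 6 count columns were used and 0 were left unused. Of 46078 genes, 30252 had a count and 14828 passed edgeR's filterByExpr. Counts were scaled with TMM (factors 0.949 to 1.08) and tested two-sided with edgeR's quasi-likelihood test (edgeR 4.0.16, R 4.3.3) on genotype alone, with Benjamini-Hochberg adjustment over all tested genes and a threshold of 0.05. log2(TPM + 1) was tested with limma 3.58.1 for genes with at least 1 TPM in 3 libraries. DESeq2 1.42.0, other scalings, other filters, a replicate block and leaving out each library were run as alternatives. Single values were compared with exact two-sided permutation tests, on log2(CPM + 0.5) for the markers. A count of 3 was taken as the limit a count of 0 allows, and intervals on counts cover counting error only. The labels do not say that the libraries came from separate cultures, so p-values measure the spread between these libraries, which exceeded counting noise (chi-square per degree of freedom 52.5 to 195 within a genotype). The labels name no batch. The steps were tested on simulated data.

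The markers, gene lists and tests were chosen with earlier results of these data known. From each other list the called genes were named, at most the 6 with the largest change, with genes of at most 3 counts in every library, and the 3 nearest profiles per detected marker among genes whose mean log2 CPM was 0 or more, of which 1 is not reported here. Within 5 Mb, neighbours were all tested genes.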

Additional observations from a re-analysis of the deposited data

How the results depend on the processing

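When libraries were left out 1 at a time, the markers called from counts ranged from 2 to 5 higher and from 0 to 1 lower, fewest without WT1 or WT3, while calls over all genes ranged from 933 (without WT1) to 4712 (without KO1), with 2088 without KO3, 2100 without WT2 and 1288 without WT3. The log2 fold changes then ranged from 1.19 to 1.71 for *Pax7*, from 1.4 to 2.04 for *Cd34*, from −1.49 to −1.04 for *Spry1* and from 0.75 to 1.05 for *Sdc4*. On log2(TPM + 1), leave-one-out calls over all genes ranged from 482 (without WT1) to 3134 (without KO1), with 1566 without KO2, 1419 without KO3, 1307 without WT2 and 879 without WT3. The lower call then ranged from 0 to 1, lost for *Spry1* without KO2, WT1, WT2 or WT3, and the fold changes from 0.74 to 1.02 for *Pax7* and from −1.08 to −0.69 for *Spry1*. With no filter on TPM, 1056 genes were called over 27302 tested, with 0 markers higher and 0 lower at unchanged log2 fold changes of 0.92 (*Pax7*), 1.60 (*Cd34*), −0.86 (*Spry1*), 2.71 (*Sdc3*), 0.86 (*Sdc4*) and 1.53 (*Cxcr4*). The alternatives to the count fit, limma on log2(TPM + 1) among them, gave 72 marker values. Of these, 63 kept direction and call, 9 lost the call and 0 reversed, and of 54 from the alternatives to the TPM fit, 43, 11 and 0. Scaling by library totals moved the median of all tested genes from 0.03 to 0.15. The causes of lost calls were not tested.

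Replicate numbers are shared between genotypes. Deviations of same-numbered libraries correlated at 0.137, −0.116 and 0.00413, against −0.335 to 0.28 for the other combinations. No pairing by number was seen, but so few libraries cannot exclude it. With a replicate block, 2520 genes were called from counts and all 6 detected markers kept their call, *Pax7* with an adjusted p of 0.0499, whereas *Bmpr1a* (0.0692), *Cdh15* (0.0569), *Chrdl1* (0.0938) and *Dusp6* (0.0647) did not and *Mki67* (0.0394) gained one. The block left 2092 genes called from TPM, and the difference in the *Pax7* to *Myod1* ratio at 0.63 (p = 0.5, exact two-sided sign-flip test). That test flips the signs of the differences between same-numbered libraries. Its smallest possible p is larger than the 0.1 of the unpaired permutation test. That ratio's difference ranged from 0.07 (without WT2) to 0.91 with 1 library left out.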
